A study of Homo sapiens with 6 samples.

Results

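The 10 genes described here belong to the circadian clock and its DEC repressors: PER1, PER2, PER3, CRY1, CRY2, CLOCK, NR1D1, NR1D2, BHLHE40 and BHLHE41. They were chosen by name from the deposited count table, which lists 21776 genes, and all 10 were found there. The table holds RNA-seq of SCC25, an established line of human oral squamous cell carcinoma with the wild-type genotype, kept for 12 h either in a tri-gas incubator at 1% O2 (hypoxia) or in a humidified incubator with air (normoxia). Each condition has 3 libraries. Their total counts were 30186813, 36076088 and 32272716 reads in hypoxia and 37278703, 29637189 and 29981208 in normoxia.

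In mammalian cells, CLOCK and its partner BMAL1 (ARNTL) switch on genes that carry E-boxes in their regulatory DNA, among them the PER and CRY genes, whose proteins return to the nucleus and inhibit CLOCK and BMAL1. A second loop is formed by the nuclear receptors NR1D1 and NR1D2 (REV-ERB alpha and beta), which repress ARNTL, and by the ROR receptors, which activate it. BHLHE40 (DEC1) and BHLHE41 (DEC2) are basic helix-loop-helix repressors that bind E-boxes and thereby dampen transcription by CLOCK and BMAL1, and BHLHE40 is also known as a hypoxia-responsive gene. Both conditions were sampled at the same single time, and whether the cells were synchronised is not given in the sources used here, so a change in level and a change in phase cannot be told apart.

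The stretches before the gene starts are shown for 5 genes. These are the pair with the largest increases, BHLHE40 and BHLHE41, and the genes with the largest decreases, CRY1 and NR1D2. PER1 was added as the PER gene with the highest deposited level per length. Each stretch is the 250 bases before a RefSeq start in GRCh38.p14, 5′ to 3′ on the gene's own strand. Capitals mark the E-box letters CACGTG, the letters ACGTG on either strand, which hold the core bound by hypoxia-inducible factors, and TTANGTAA on either strand, the D-box bound by DBP and NFIL3. Every CACGTG holds ACGTG on both strands.
BHLHE40, chr3:4979187-4979436, plus strand: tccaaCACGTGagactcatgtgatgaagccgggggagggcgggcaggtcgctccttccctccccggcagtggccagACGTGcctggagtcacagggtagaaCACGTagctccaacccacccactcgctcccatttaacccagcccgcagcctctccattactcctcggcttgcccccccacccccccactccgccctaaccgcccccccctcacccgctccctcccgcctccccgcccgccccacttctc
BHLHE41, chr12:26125038-26125287, minus strand: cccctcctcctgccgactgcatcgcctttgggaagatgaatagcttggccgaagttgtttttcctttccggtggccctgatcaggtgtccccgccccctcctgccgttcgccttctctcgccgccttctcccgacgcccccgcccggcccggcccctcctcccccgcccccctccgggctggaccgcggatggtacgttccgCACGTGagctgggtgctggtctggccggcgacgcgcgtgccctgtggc
CRY1, chr12:107093550-107093799, minus strand: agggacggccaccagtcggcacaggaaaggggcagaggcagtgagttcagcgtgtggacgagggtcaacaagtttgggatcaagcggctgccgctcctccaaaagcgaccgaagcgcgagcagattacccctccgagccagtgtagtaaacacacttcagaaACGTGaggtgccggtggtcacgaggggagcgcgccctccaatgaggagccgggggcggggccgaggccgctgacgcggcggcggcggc
NR1D2, chr3:23945871-23946120, plus strand, the second of its 2 starts: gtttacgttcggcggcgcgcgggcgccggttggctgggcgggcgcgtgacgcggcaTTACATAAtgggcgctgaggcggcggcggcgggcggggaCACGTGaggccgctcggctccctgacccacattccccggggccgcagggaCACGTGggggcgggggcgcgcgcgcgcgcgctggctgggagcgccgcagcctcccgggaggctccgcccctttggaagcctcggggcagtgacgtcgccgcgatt
PER1, chr17:8152405-8152654, minus strand: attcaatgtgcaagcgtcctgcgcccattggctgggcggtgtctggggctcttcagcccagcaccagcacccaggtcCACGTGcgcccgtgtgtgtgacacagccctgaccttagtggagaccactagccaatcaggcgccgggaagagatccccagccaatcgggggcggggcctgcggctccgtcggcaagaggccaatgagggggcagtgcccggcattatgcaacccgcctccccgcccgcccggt

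BHLHE40 had CACGTG at 245 bases before its start, with ACGTG letters again at 174 and 149 bases. BHLHE41 carried CACGTG at 48 bases and PER1 at 173 bases before the start. NR1D2 carried 2 copies, at 155 and 105 bases, and a D-box match at 194 bases, all before its second start. The window before its first start held none of these letters. CRY1 had no CACGTG in its window and a single ACGTG at 88 bases. Over the 14 RefSeq windows of the 10 genes, 4 held CACGTG, 9 held ACGTG and 2 held TTANGTAA. Of all 35116 windows of the same length, 6.34% held CACGTG, 18.5% held ACGTG and 1.98% held TTANGTAA. CACGTG was thus found before genes that rose (BHLHE40, BHLHE41, PER1) and before one that fell (NR1D2), and all genes with it are among those shown. ACGTG was found before 9 of the 10 genes. Among them were CRY1, NR1D2 and CLOCK, which fell, and CRY2, which was not called, whereas PER3, which rose, had none. These are matches of letters in 1 window per start and not measured binding.

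The libraries were first compared with their labels. CA9, a membrane carbonic anhydrase and a widely used marker of hypoxia, had 262, 277 and 293 CPM (reads scaled to library size with TMM factors) in hypoxia and 32.2, 27.3 and 67.7 in normoxia. NDRG1, ADM, ANKRD37 and PDK1, which are known hypoxia-responsive genes, also rose, with log2 fold changes of 5.40, 3.04, 3.79 and 1.80, and none of the 5 overlapped between the conditions. Normoxia replicate 3 stood apart from the other normoxia libraries in part of these genes: CA9 was highest there, and NDRG1 had 409 CPM against 163 and 140 CPM, beside 9007, 10512 and 10638 CPM in hypoxia. Its chi-square per gene against the other normoxia libraries was 10.5 and 11.5, and 7.16 between those. Without it the log2 fold changes were 3.20 for CA9 and 6.03 for NDRG1. All 9 calls among the clock and DEC genes held without it, with log2 fold changes of 3.67 for BHLHE40, 3.87 for BHLHE41, 1.43 for PER1, 0.66 for PER2, 1.66 for PER3, -1.31 for CRY1, 0.79 for NR1D1, -1.02 for NR1D2 and -0.40 for CLOCK.

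Of 9 squamous epithelial markers, 8 had more than 10 reads in every library, among them KRT5, TP63 and CDH1. KRT14 was at 0 in 5 libraries and had 1 read in the other. The squamous markers summed to 1072, 1040 and 1059 CPM in hypoxia and 911, 922 and 966 CPM in normoxia, a difference carried by CDH1 (479 against 188 CPM in the means). Of the 8 tested, KRT17, CDH1 and DSG3 rose, TP63 was not called, and KRT5, KRT6A, EPCAM and SFN fell. KRT5 and TP63 were not stable: KRT5 kept its call in 10 of 13 settings, and TP63 was called higher with upper-quartile factors and without normoxia replicate 3. KRT6A fell furthest, from a mean of 16.5 to 0.951 CPM, with a log2 fold change of -4.12 (edgeR's adjusted p = 7.48e-11).

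Markers of other cell types summed to less than the squamous markers, but not every one was low. CD68, with means of 31 CPM in hypoxia and 33.1 in normoxia, lay between the squamous markers KRT17 (17 and 8.18) and KRT5 (111 and 126). The 5 fibroblast markers summed to 22.0, 18.7 and 17.1 CPM in hypoxia against 4.03, 3.15 and 5.64 CPM in normoxia, mostly COL1A1, while DCN had 0 to 4 reads per library. COL1A1 rose from a mean of 3.76 to 18 CPM, with a log2 fold change of 2.26 (edgeR's adjusted p = 1.02e-09). The leukocyte markers summed to 33.6, 37.3 and 39.6 CPM against 33.6, 32.9 and 35.9 CPM, mostly CD68, with PTPRC and CD3E at 0 to 2 reads. CD14, of the same list, rose from a mean of 1.07 to 5.83 CPM, with a log2 fold change of 2.45 (edgeR's adjusted p = 7.27e-08). The 4 endothelial markers summed to 1.67, 1.26 and 1.51 CPM against 0.296, 0.315 and 0.744 CPM, with CDH5 the most abundant. The part of such RNA in the changes below was not tested. In bulk libraries, fewer cells that use a gene and less RNA per cell cannot be told apart.

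Hypoxia moved most of the transcriptome, and the clock genes have to be read against that. By edgeR's quasi-likelihood test with Benjamini-Hochberg adjustment over the 14255 genes tested, 77.8% of genes passed an adjusted p-value under 0.05, 39.2% as higher and 38.5% as lower in hypoxia. A log2 fold change beyond 1 in size was reached by 30.4% of genes together with that p-value, and the libraries of the conditions did not overlap for 80.5%. Of the 10 clock genes, all were tested, 6 rose, 3 fell and CRY2 did not pass the test. That is 9 of 10 genes called, beside the 77.8% of all genes. The libraries did not overlap for the same 9. Log2 fold changes beyond 1 in size were found for 6 of the 10, of which 4 rose and 2 fell. Their median change was 0.75 on the log2 scale, beside 0.023 over all genes tested.

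**Figure D1:**
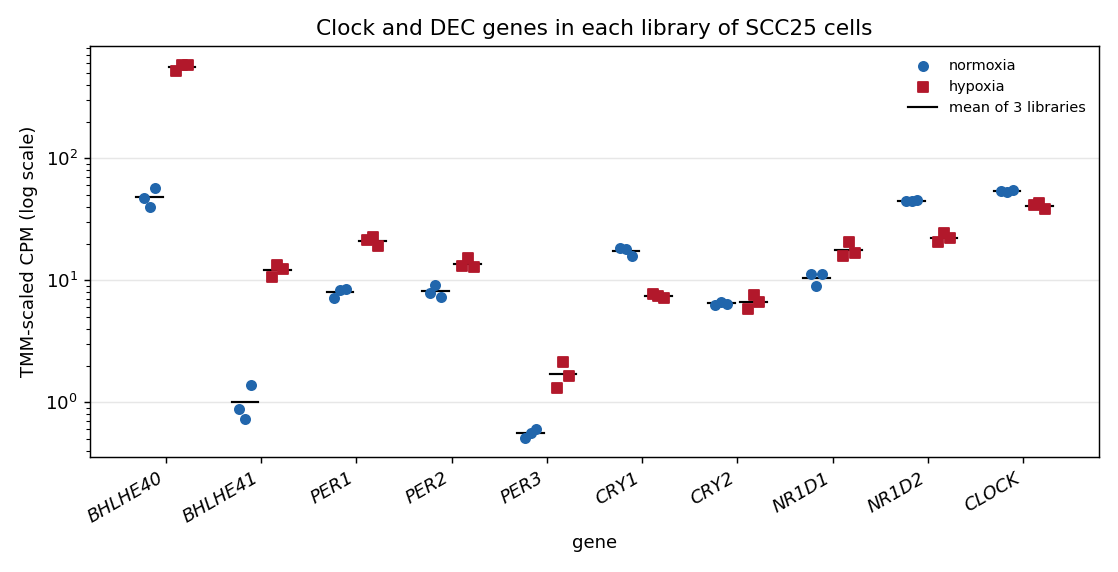
TMM-scaled CPM of the 10 genes (log axis) in the 3 normoxia libraries (circles) and the 3 hypoxia libraries (squares), with a bar at each mean. The conditions are far apart for BHLHE40 and BHLHE41, CRY1, NR1D2 and CLOCK are lower in every hypoxia library, and the libraries of CRY2 overlap.

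The DEC repressors showed the largest increases of the 10 genes. BHLHE40 had 15942, 21850 and 19005 reads in hypoxia and 1756, 1151 and 1689 in normoxia. In TMM-scaled CPM this was 522, 587 and 586 against 47.2, 40.2 and 57.1, so that the lowest hypoxia library was far above the highest normoxia library. The means were 565 ± 37.2 and 48.2 ± 8.48 CPM (SD, n = 3 each), an 11.7-fold difference, and the log2 fold change was 3.55 ± 0.095 (SE, edgeR's quasi-likelihood test, adjusted p = 8.32e-15). Larger increases were seen for 2.29% of the genes tested. BHLHE40 reads made up 0.0528, 0.0606 and 0.0589% of all counted reads in hypoxia and 0.00471, 0.00388 and 0.00563% in normoxia.

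BHLHE41, its paralog, was a much rarer transcript and changed by a like factor. It had 325, 493 and 403 reads in hypoxia and 33, 21 and 41 reads in normoxia. The CPM were 10.6, 13.3 and 12.4 against 0.887, 0.734 and 1.39, again without overlap. The means of 12.1 ± 1.33 and 1.0 ± 0.341 CPM (SD, n = 3 each) differed 12.1-fold, with a log2 fold change of 3.60 ± 0.20 (SE, edgeR's adjusted p = 2.27e-11).

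The 3 PER genes, whose proteins form the negative limb of the loop, all rose. PER1 was at 21.5, 22.7 and 19.2 CPM in hypoxia and 7.20, 8.39 and 8.52 in normoxia, with a log2 fold change of 1.40 ± 0.11 (SE, edgeR's adjusted p = 1.89e-09). PER2 was at 13.0, 15.2 and 12.8 CPM against 7.95, 9.19 and 7.37, with a log2 fold change of 0.75 ± 0.12 (edgeR's adjusted p = 2.14e-05). PER3 had 40, 80 and 54 reads against 19, 16 and 18, which is 1.31, 2.15 and 1.66 CPM against 0.511, 0.559 and 0.608. Every hypoxia library was above every normoxia library for each of the 3 genes. The log2 fold change of PER3, 1.62 ± 0.33 (edgeR's adjusted p = 0.000284), had the widest error of the 10 genes and rests on the fewest reads.

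The cryptochromes, the partners of the PER proteins, did not move together. CRY1 was at 7.66, 7.45 and 7.18 CPM in hypoxia and 18.4, 18.1 and 15.8 in normoxia. All 3 hypoxia libraries lay below all normoxia libraries, the means were 7.43 ± 0.242 and 17.4 ± 1.44 CPM (SD, n = 3 each), and the log2 fold change was -1.23 ± 0.11 (SE, edgeR's adjusted p = 1.03e-08). This was the largest decrease among the 10 genes, and 6.34% of the genes tested fell further. CRY2 was at 5.86, 7.58 and 6.63 CPM against 6.31, 6.67 and 6.42. Its hypoxia libraries lay on both sides of the normoxia libraries, and a log2 fold change of 0.05 ± 0.14 (edgeR's adjusted p = 0.738) was not distinguishable from the spread.

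NR1D1 and NR1D2, heme-binding repressors of ARNTL, moved in opposite directions. NR1D1 was at 15.7, 20.8 and 16.7 CPM in hypoxia and 11.2, 9.02 and 11.3 in normoxia, with a log2 fold change of 0.75 ± 0.12 (SE, edgeR's adjusted p = 2.46e-05). NR1D2 was at 20.5, 24.5 and 22.1 CPM against 44.9, 45.0 and 45.4, with a log2 fold change of -1.01 ± 0.074 (edgeR's adjusted p = 1.13e-09). Neither gene overlapped between the conditions. NR1D1 shares 263 exonic bases with THRA, a thyroid hormone receptor gene on the opposite strand (GENCODE v29), and whether the counting used the strand is not given in the sources used here. THRA was at 39.7, 40.0 and 40.9 CPM against 22.2, 19.4 and 20.1 and rose as well, with a log2 fold change of 0.96 ± 0.074 (edgeR's adjusted p = 1.93e-09). The part of shared reads in the NR1D1 change was not tested.

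CLOCK, the activator of the loop, fell by a small amount. It was at 41.1, 43.0 and 38.7 CPM in hypoxia and 53.6, 52.8 and 54.7 in normoxia. The conditions did not overlap, and the log2 fold change was -0.39 ± 0.062 (SE, edgeR's adjusted p = 1.77e-05), smaller than the median size of 0.63 over all genes tested.

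Exonic overlap with other genes was small for most of the 10. BHLHE40 shares 4 of 3837 exonic bases with BHLHE40-AS1 on the opposite strand, which had 21, 77 and 36 reads in hypoxia and 14, 7 and 7 in normoxia, with a log2 fold change of 2.15 ± 0.47 (SE, edgeR's adjusted p = 0.000448). BHLHE41 shares 162 of 3948 bases with SSPN, counted at 13, 35 and 24 reads against 6, 2 and 5. CLOCK shares 76 of 11762 bases with TMEM165. PER3 shares 868 of 8099 bases with UTS2, which had 1 read in 1 library and 0 in the others. Other overlaps are with genes that were not in the count table. PER3 shares 482 bases with Z98884.1, PER2 188 of 6877 with AC012485.1, CRY1 94 of 5062 with AC078929.1 and CLOCK 27 with AC024243.1. On its own strand, PER1 shares 30 of 7002 bases with AC129492.3 and 78 with MIR6883. CRY2 and NR1D2 share none.

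The ratio of a gene to its paralog gives the change within each pair. For BHLHE40 to BHLHE41 the CPM ratio was 49.1, 44.3 and 47.2 in hypoxia and 53.2, 54.8 and 41.2 in normoxia. These overlapped, and the mean log2 ratio differed by -0.08 ± 0.14 (SE, n = 3 each), with an exact two-sided permutation p = 0.6. With 3 libraries against 3 this exact permutation test cannot go below p = 0.1, so it does not show that the DEC genes changed alike.

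For CRY1 to CRY2 the CPM ratio was 1.31, 0.982 and 1.08 in hypoxia and 2.91, 2.71 and 2.45 in normoxia, a difference of -1.27 ± 0.14 in log2. For NR1D1 to NR1D2 it was 0.765, 0.849 and 0.757 against 0.250, 0.200 and 0.249, a difference of 1.77 ± 0.12. For PER1 to PER2 it was 1.65, 1.49 and 1.5 against 0.905, 0.913 and 1.16, a difference of 0.65 ± 0.12. The conditions did not overlap in any of these 3 pairs. Each gave an exact two-sided permutation p = 0.1, the smallest that 3 libraries against 3 allow, and 0.133 after Benjamini-Hochberg adjustment over the 4 pairs, so this test could not bring any ratio under 0.05.

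**Figure D2:**
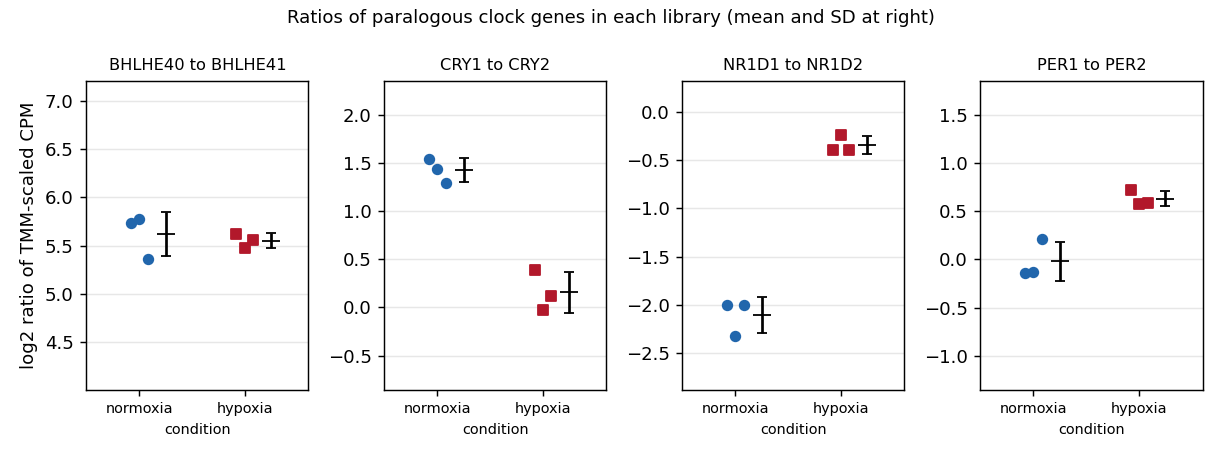
Log2 ratio of TMM-scaled CPM within 4 paralog pairs, with 1 point per library, normoxia as circles, hypoxia as squares, and the mean and SD beside them; all panels span the same range of log2 units. The BHLHE40 to BHLHE41 ratio overlaps between the conditions, whereas CRY1 to CRY2 is lower and NR1D1 to NR1D2 and PER1 to PER2 are higher in hypoxia.

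Levels of different genes were compared per length, with the deposited FPKM. The lengths behind these FPKM differ from the exonic bases of GENCODE v29, with 4676 against 7002 bases for PER1 and 12152 against 11762 for CLOCK. Ranks of genes that lie close in FPKM therefore depend on the lengths used. BHLHE40 was the most abundant of the 10 in both conditions, at 154, 176 and 171 FPKM in hypoxia and 13.7, 11.3 and 16.4 FPKM in normoxia. It made up 85.3, 84.7 and 86.4% of the summed FPKM of the 10 genes in hypoxia and 33.9, 30.8 and 38.4% in normoxia. In hypoxia 2.22% of the genes tested had a higher mean FPKM, and in normoxia 27.3% did.

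In normoxia the mean levels ran from BHLHE40 (13.8 FPKM) to NR1D2 (8.27 FPKM), CRY1 (4.88 FPKM), CLOCK (4.35 FPKM), NR1D1 (3.94 FPKM), PER1 (1.69 FPKM), CRY2 (1.48 FPKM), PER2 (1.19 FPKM), BHLHE41 (0.264 FPKM) and PER3 (0.0654 FPKM). The neighbours CRY1 and CLOCK, and CLOCK and NR1D1, overlapped in their libraries. In hypoxia the mean levels ran from BHLHE40 (167 FPKM) to NR1D1 (6.86 FPKM), PER1 (4.60 FPKM), NR1D2 (4.23 FPKM), CLOCK (3.42 FPKM), BHLHE41 (3.29 FPKM), CRY1 (2.15 FPKM), PER2 (2.06 FPKM), CRY2 (1.58 FPKM) and PER3 (0.207 FPKM). Here PER1 and NR1D2, CLOCK and BHLHE41, and CRY1 and PER2 overlapped. The order of the REV-ERB genes turned: the FPKM of NR1D1 over that of NR1D2 was 1.56, 1.73 and 1.54 in hypoxia and 0.509, 0.409 and 0.509 in normoxia. PER1 passed CRY1 in the same way, while PER3 stayed lowest in both conditions. The part of reads shared with THRA in the NR1D1 levels was not tested.

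**Figure D3:**
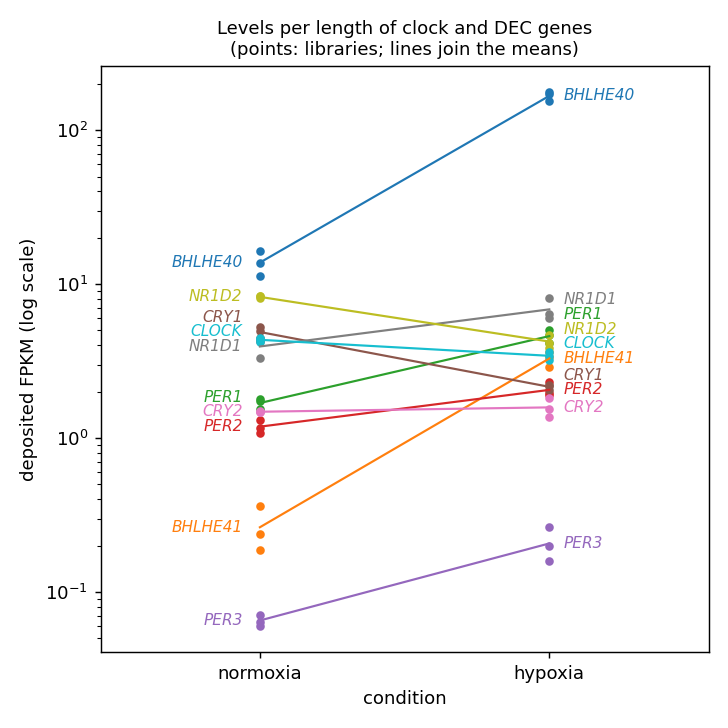
Deposited FPKM of the 10 genes (log axis) in normoxia and hypoxia, with 1 point per library and lines joining the means. BHLHE40 is highest and PER3 lowest in both conditions, BHLHE41 climbs from 0.264 to 3.29 FPKM, and the lines of NR1D1 and NR1D2 cross.

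The rest of the clock machinery was read from lists of genes by role. Of the 36 other clock genes tested, 12 rose, 16 fell and 8 did not pass the test, which is 77.8% called, the same share as over all genes, and their median log2 fold change was -0.04. The split by direction depends on the scaling: with upper-quartile factors, which raise log2 fold changes by a median of 0.193, 20 of the 36 were higher and 11 lower, and over all genes 6849 were higher and 4374 lower. The 9 calls among the 10 clock and DEC genes kept their direction under that scaling.

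Among the activators, ARNTL (BMAL1), the partner of CLOCK, rose from 6.77, 5.56 and 8.48 CPM in normoxia to 15.7, 16.0 and 14.9 in hypoxia, with a log2 fold change of 1.16 ± 0.13 (SE, edgeR's adjusted p = 3.44e-07). ARNTL2 (BMAL2) fell from 154, 151 and 145 to 70.2, 67.7 and 67.1 CPM, with a log2 fold change of -1.13 ± 0.053 (edgeR's adjusted p = 4.11e-12). The BMAL paralogs thus moved in opposite directions, as the REV-ERB genes did. NPAS2, which can stand in for CLOCK, was at 22.2, 24.5 and 24.8 CPM against 30.8, 27.7 and 28.9, with a log2 fold change of -0.29 ± 0.078 (edgeR's adjusted p = 0.00262), a call lost with upper-quartile factors (-0.10, adjusted p = 0.264).

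RORA, an activator of ARNTL, was nearly silent in normoxia, with 0, 0 and 2 reads, and had 73, 71 and 68 reads in hypoxia. The ratio of its scaled reads was 101, with a 95% exact interval from 27.6 to 839 that covers counting error only, and edgeR gave an adjusted p = 3.36e-08. Its normoxia reads all came from replicate 3. RORA passed the filter on low counts only through its hypoxia reads, and the setting with at least 10 counts in every library left it out. In the other 12 settings of the count test it was called, with log2 fold changes from 5.79 to 9.14. This range rests on near-empty normoxia libraries, so it gives no measured size, and the calls are no separate support.

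Of 9 clock output genes, 7 were tested, of which 6 rose and WEE1 fell, beside the 77.8% of all genes that were called and the 39.2% that were higher. DBP, a factor that activates D-box genes, was at 10.3, 13.3 and 11.3 CPM in hypoxia and 1.96, 2.06 and 2.67 in normoxia, with a log2 fold change of 2.39 ± 0.16 (SE, edgeR's adjusted p = 4.21e-10). NFIL3, a D-box repressor, rose too, from 11.6, 9.30 and 10.9 to 24.1, 26.8 and 27.6 CPM, with a log2 fold change of 1.30 ± 0.10 (edgeR's adjusted p = 2.03e-09). Activator and repressor of the same element were therefore both higher in every hypoxia library. TEF, a relative of DBP, rose by 0.59 ± 0.12 on the log2 scale (edgeR's adjusted p = 0.000294). KLF9, a clock-controlled zinc finger factor, had the largest increase of the list, from 15, 11 and 22 reads to 92, 112 and 101, with a log2 fold change of 2.58 ± 0.30 (edgeR's adjusted p = 5.36e-07). This was within its SE of the 2.39 of DBP, so the order of KLF9 and DBP is not settled. WEE1, the kinase that holds back entry into mitosis, was at 18.9, 18.7 and 18.9 CPM against 31.3, 31.7 and 32.8, with a log2 fold change of -0.76 ± 0.074 (edgeR's adjusted p = 4.34e-08). CIART, a repressor of CLOCK and BMAL1, had 4, 5 and 6 reads against 14, 0 and 6 and, like HLF, was not tested.

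Of the kinases and ubiquitin enzymes listed as regulators of clock proteins, 14 were tested. In the count test 2 were higher, 7 lower and 5 not called (64.3% called, beside 77.8% of all genes), with a median log2 fold change of -0.10, and with upper-quartile factors 7 were higher and 4 lower. CSNK1D, which phosphorylates PER proteins, and SIAH2, a ubiquitin ligase, had log2 fold changes of 0.14 ± 0.050 and 0.22 ± 0.070 (SE, edgeR's adjusted p = 0.0143 and 0.0092). SIAH2 lost its call without normoxia replicate 1 (adjusted p = 0.0509), within a range of 0.17 to 0.41 in log2 fold change over 13 settings. CSNK1D lost its call without normoxia replicate 1, without hypoxia replicate 3 and with no filter on low counts, with log2 fold changes from 0.10 to 0.34 and adjusted p-values up to 0.139 over the same settings. The deubiquitinases USP2 and USP7 fell by 0.74 ± 0.13 and 0.65 ± 0.054 on the log2 scale (edgeR's adjusted p = 4.87e-05 and 6.56e-09). CSNK1E had 2 to 12 reads per library and was not tested, and the readthrough transcript TPTEP2-CSNK1E, which shares 1316 of its exonic bases, had 84, 106 and 120 reads in hypoxia and 39, 16 and 36 in normoxia, so that reads of this kinase may be split between both entries.

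Of 11 cofactors tested, 2 were higher, 6 lower and 3 not called (72.7% called, beside 77.8% of all genes), and with upper-quartile factors 5 were higher and 5 lower. TBL1XR1, a subunit of corepressor complexes, had a log2 fold change of 0.25 ± 0.057 (SE, edgeR's adjusted p = 0.000722). The largest decreases were those of TIPIN, the partner of TIMELESS at replication forks, with a log2 fold change of -1.99 ± 0.13 (edgeR's adjusted p = 1.48e-10), and WDR5, a subunit of histone methyltransferase complexes, with -1.20 ± 0.061 (edgeR's adjusted p = 1.06e-11).

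**Figure D4:**
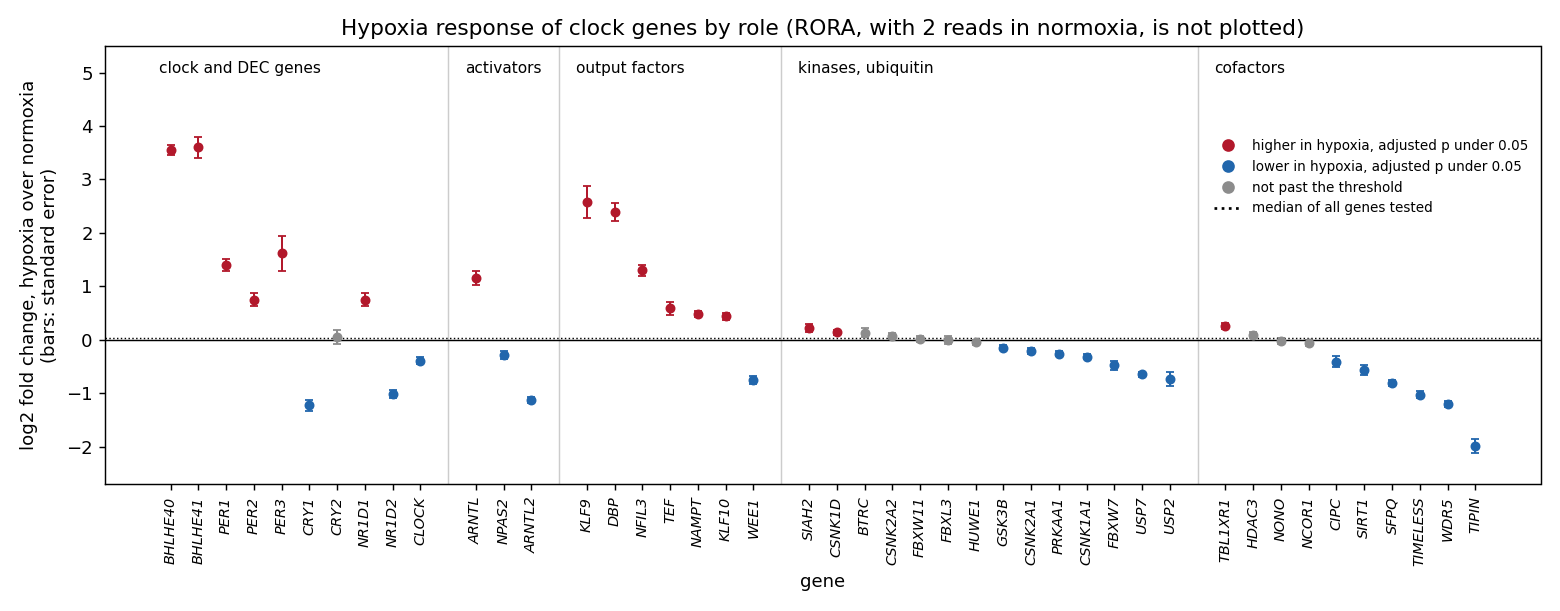
Log2 fold change of hypoxia over normoxia (points, with SE) for the 10 clock and DEC genes and for other clock genes tested, grouped by role and without RORA; red is higher and blue lower at an adjusted p-value under 0.05, grey is not past it, and the dotted line is the median of all genes tested. BHLHE40 and BHLHE41 lie above 3, the output factors other than WEE1 lie above 0, and kinases and ubiquitin enzymes lie between -0.74 and 0.22.

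The deposited annotation assigns 33 genes to the circadian rhythm pathway. Without the 10 clock and DEC genes, 20 of the other 23 were tested, of which 9 rose, 7 fell and 4 were not called, or 80.0% called beside 77.8% of all genes, with a median log2 fold change of 0.07. With upper-quartile factors 13 of the 20 were higher and 3 lower. This is not a separate set, since it repeats genes of the lists by role, among them ARNTL, RORA, NPAS2, DBP, NFIL3 and CSNK1D. PRKAG3, a subunit of AMP-activated protein kinase, had 32, 43 and 44 reads against 0, 0 and 1, so that it was near 0 in normoxia like RORA. The ratio of its scaled reads was 113, with a 95% exact interval from 20 to 4514 for counting error only, and edgeR gave an adjusted p = 3.07e-07. Its only normoxia read came from replicate 3. Like RORA, PRKAG3 passed the filter on low counts only through its hypoxia reads and was left out where at least 10 counts in every library were asked for. In the other 12 settings of the count test it was called, with log2 fold changes from 5.81 to 8.30, which again give no measured size and no separate support.

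The DEC genes were also set beside their structural relatives, of which 9 of 11 tested were called (81.8%, beside 77.8% of all genes). Of 5 other basic helix-loop-helix genes of the HES and HEY type that were tested, HES1, HES2, HES4 and HES6 rose and HES7 was not called. HES6 had a log2 fold change of 1.11 ± 0.21 and HES2 of 1.02 ± 0.17 (SE, edgeR's adjusted p = 0.000113 and 2.94e-05), well under those of BHLHE40 and BHLHE41. HES4, with a log2 fold change of 0.21 and an adjusted p = 0.0498, kept its call in 5 of 13 settings of the count test. Of 6 genes of the PAS type, the family of CLOCK, EPAS1, ARNT and ARNT2 rose, HIF1A and AHR fell and SIM2 was not called.

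HIF1A, which encodes the oxygen-regulated alpha subunit of HIF-1, was at 78.9, 61.5 and 60.5 CPM in hypoxia and 304, 326 and 331 in normoxia, with a log2 fold change of -2.26 ± 0.083 (SE, edgeR's adjusted p = 2.08e-13). EPAS1, which encodes HIF-2 alpha, rose from 97.0, 101 and 116 to 262, 287 and 279 CPM, with a log2 fold change of 1.40 ± 0.065 (edgeR's adjusted p = 3.48e-12). The transcripts of the alpha subunits thus moved in opposite directions, and protein levels were not measured in these libraries. ARNT2, a partner of PAS proteins, had 83, 119 and 144 reads against 12, 27 and 28, with a log2 fold change of 2.26 ± 0.34 (edgeR's adjusted p = 9.72e-06). AHR, the aryl hydrocarbon receptor, had a log2 fold change of -0.43 ± 0.056 (edgeR's adjusted p = 2.18e-06).

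The genes most like BHLHE41 and CRY1 over the 6 libraries were found by the Euclidean distance of log2 CPM, each gene centred on its own mean, a distance set mainly by the difference between the conditions. For BHLHE41, whose log2 fold change of 3.60 was the largest of the 10 in the count test but not separable from the 3.55 of BHLHE40, these were KLHL24, an adaptor of a ubiquitin ligase, at a distance of 0.190, and TNXB, a matrix glycoprotein, at 0.204. KLHL24 was at 52.7, 64.1 and 55.6 CPM in hypoxia and 4.33, 3.39 and 6.08 in normoxia, and like BHLHE41 it was lowest in normoxia replicate 2. For CRY1, the gene with the largest decrease, they were DUS3L, a tRNA-modifying enzyme, at 0.0418 and HEATR1, a ribosome biogenesis factor, at 0.0545. DUS3L was at 17.2, 16.2 and 15.6 CPM against 40.2, 39.2 and 35.0, the same order of libraries as in CRY1.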

How the data were processed

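RNA-seq libraries of SCC25 cells in hypoxia and normoxia were compared, 3 per condition. Groups and replicate numbers came from the labels. Nothing says that the libraries came from separate cultures, so p-values measure the spread between these libraries, which may be technical. A legend in the study names SCC9, another oral carcinoma line, whereas the labels name SCC25. The submitters' processing notes list the mouse builds GRCm38 and mm10, although the cell line and the gene symbols are human. The aligner, the counting tool and the use of strand are not given in the sources used here.

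The authors deposited counts, whole numbers of reads per gene without normalization. The deposited FPKM are those counts scaled by the authors to gene length and library total. From the counts, 14255 of 21776 genes passed filterByExpr and entered edgeR 4.0.16 (R 4.3.3, TMM, quasi-likelihood F test, condition as the only term, Benjamini-Hochberg adjustment at 0.05). Standard errors were taken from the F statistic, as the absolute log2 fold change over its root. CPM are counts relative to the TMM-scaled library total, and log2 CPM had a prior count of 2. Depth limits genes with 3 or fewer reads per library. Replicates differed by more than sampling noise in all pairs, with a chi-square per gene from 5.11 to 11.5. Paralog ratios were tested by exact permutation over libraries. The fit across genes was checked on simulated data. Few genes changed there, so the scaling was not checked for data in which most genes change.

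Alternatives were DESeq2 1.42.0 size factors and its Wald test, upper-quartile factors, other filters on low counts, the replicate number as a block, limma 3.58.1 on log2(FPKM + 1) or log2(FPKM + 0.1), and each library left out in turn. Columns of the authors' gene annotation gave the circadian rhythm pathway and the basic helix-loop-helix family, lists that were added after the files had been seen. The genes and lists were chosen with earlier results of these data known. Named were all 10 genes, NPAS2, ARNTL, ARNTL2, RORA, DBP, TEF, NFIL3, CIART, the 2 largest increases and 2 largest decreases per list among called genes without overlap, THRA, BHLHE40-AS1, 5 hypoxia genes, and the 2 nearest genes to the largest increase and decrease. SSPN, TMEM165, UTS2, CSNK1E and its readthrough, LOX, PFKFB4 and genes of short lists were named after their values were seen. Some items that this rule names are not reported here. Promoter windows came from a RefSeq table of GRCh38.p14, in which all 10 genes were matched, and exons from GENCODE v29 (GRCh38).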

Additional observations from a re-analysis of the deposited data

How the results depend on the processing

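The 9 called clock and DEC genes kept their call and direction in all 13 settings of the count test, with log2 fold changes of 3.43 to 3.74 for BHLHE40, 3.43 to 3.87 for BHLHE41, 1.31 to 1.59 for PER1, 0.66 to 0.94 for PER2, 1.41 to 1.81 for PER3, -1.31 to -1.03 for CRY1, 0.62 to 0.95 for NR1D1, -1.09 to -0.82 for NR1D2 and -0.43 to -0.20 for CLOCK. CRY2 was never called, and its log2 fold change turned to -0.05 without hypoxia replicate 2, within a range of -0.05 to 0.13 over the libraries left out in turn. On log2(FPKM + 1), where the pseudocount shrinks changes of low genes, BHLHE41 was at 1.76, PER1 at 1.06 and PER2 at 0.48, all still called, against 3.24, 1.39 and 0.74 on log2(FPKM + 0.1), and BHLHE40 (3.52 and 3.60) then exceeded BHLHE41. On both scales, PER3 was under the mean minimum of 1 FPKM and not tested, and without that filter its difference on log2(FPKM + 1) was 0.18, with a pseudocount far above its level. With the replicate number as a block, 9 of the 10 genes and 10875 of all genes were called. Same-numbered libraries did not deviate together, with correlations of 0.02, -0.07 and 0.00, so the numbers were not taken as pairs, and the block changed no call of the 10 genes. Leaving out each library gave 10669 to 11390 calls over all genes, 26 to 28 other clock genes and 8 to 10 relatives. Depth limits RORA and PRKAG3, which had 0 to 2 reads per library in normoxia.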

Other observations

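The deposited annotation also groups 29 genes as the basic helix-loop-helix family, which holds BHLHE40, CLOCK and ARNTL but not BHLHE41. Of the 24 tested, 11 rose, 9 fell and 4 were not called (83.3% called, beside 77.8% of all genes), with a median of 0.06 in log2 fold change. Among those called, LYL1 kept its call in 4 of 12 settings of the count test, HES4 in 5 of 13 and MITF in 11 of 13. The other called genes kept theirs in every setting.

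The genes nearest to BHLHE40 over the 6 libraries, named after their values were seen, were LOX, a collagen cross-linking oxidase, at a distance of 0.133 in centred log2 CPM, and PFKFB4, a regulator of glycolysis, at 0.174. LOX was at 76.3, 88.0 and 86.6 CPM in hypoxia and 6.93, 6.54 and 8.59 in normoxia. As in BHLHE40, its lowest normoxia library was replicate 2 and its highest was replicate 3.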
